A study of Homo sapiens with 6 samples.

Results

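The SLC25 family is the set of nuclear-encoded carriers that move nucleotides, phosphate, carboxylates, amino acids and cofactors across the inner membrane of mitochondria. Most carriers work as exchangers that bind a substrate on one side of the membrane and release it on the other, so that the matrix and the cytosol share their pools of ATP, citrate, aspartate, glycine or folate. They are made in the cytosol and enter through the outer-membrane TOM complex, the small TIM chaperones and the TIM22 insertase, with no cleaved presequence in most of them. The carriers described here are all rows of the authors' deposited table whose symbol is SLC25A followed by a number alone, 48 of 26364 genes. A mean of at least 10 normalized counts was reached by 40 of them, and these 40 were all tested. The lowest mean inside this limit was 20.0 (SLC25A27) and the highest outside it 5.90 (SLC25A41). The table compares REH cells, a human leukaemia line of B-cell precursors (acute lymphoblastic), that carried a lentiviral hairpin against the transcription factor STAT3 (shSTAT3, 3 libraries) with REH cells that carried a scramble hairpin (3 libraries). Both groups went through lentiviral transduction, 3 days of puromycin and removal of dead cells, and the replicates were independent experiments. The labels do not say how many hairpins against STAT3 were used, and RNA of bulk cultures cannot tell fewer cells of a kind from less RNA per cell.

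Each gene has its mean normalized count over the libraries there, its log2 fold change, and p before and after adjustment over all tested genes. Tested means throughout that a gene has an adjusted p, and 5640 other genes have a p but no adjusted p. The table has no value per library, so no spread between replicates can be shown. The standard errors and 95% intervals below were worked out from fold change and p. The authors' fold changes are shrunken toward 0, which holds for the intervals too. STAT3 RNA was left at 29.8% of scramble per the authors' deposited table (log2 change −1.75). Negative values were read as lower in shSTAT3 because STAT3 is the target, since the header does not name the direction. Depth was even: size factors read from the lowest means lay between 0.935 and 1.13, and the means of all genes summed to 11485100 normalized counts. Of the 1353 genes with a single read in all, 363 had it in the same library, against 164 to 240 in each of the others. This library (size factor 1.13) could not be matched to a sample, so no result can be given without it. Its group can be read from CD3E, whose mean of 0.147 is 1 read in this library. The log2 change of CD3E is negative (−0.055), which places the library among the 3 scramble libraries. Of 10 B-cell precursor markers 9 were tested, with means up to 20516 for RAG1 in the authors' deposited table, while VPREB1 was listed at 0. Of these 2 rose, CD79A and PAX5, by 0.63 and 0.32 in log2 terms, and 4 fell, among them CD22, DNTT and RAG1 by 0.29, 0.23 and 0.21 per the authors' deposited table. None of 7 T-cell and NK markers was tested (highest mean 5.82). Of 9 myeloid markers 4 were tested, with MPO at a mean of 2330, and 1 rose and 2 fell. CST3 and CSF1R fell by 0.75 and 0.81 (log2) and ITGAM rose by 0.33 in the authors' deposited table. CD14 and FCGR3A, with means of 6.66 and 0.176, were at 0.67 and 0.06 there without an adjusted p. S100A9, S100A8 and LYZ had log2 changes of −0.25, −0.19 and −0.43 there but no p. A fold change without a p was given for 74 genes in all, 64 of them lower and 0 of them carriers. Of 8 fibroblast and epithelial markers 2 were tested, COL1A1 and PDGFRB, and both fell, by 0.75 and 0.27 in the authors' deposited table, while 4 others were listed at 0. What these genes have to do with the carriers was not tested.

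Carrier transcripts moved in both directions and by little. By the authors' deposited table, 8 of the 40 carriers rose and 8 fell at an adjusted p under 0.05 (DESeq2), and 24 were not called. These 16 are 40.0% of the carriers, against 44.5% of all 12061 tested genes, and the shares of 20.0% higher and 20.0% lower stand beside 21.3% and 23.2% of all tested genes. The share of carriers called was thus near that of all tested genes, in either direction. The median log2 fold change was 0.06 over the 40 carriers and 0.0027 over all tested genes. The median size of the change, whatever its sign, was 0.23 and 0.27. Only SLC25A40, SLC25A10 and SLC25A34 were called with at least a 1.5-fold change, 7.5% of the carriers against 17.3% of all tested genes. No carrier reached a 2-fold change, which 4.48% of all tested genes did among those called. The carriers lie between −0.85 for SLC25A40 and 0.86 for SLC25A34 (log2) in the authors' deposited table, as the plot against mean count shows.

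**Figure D1:**
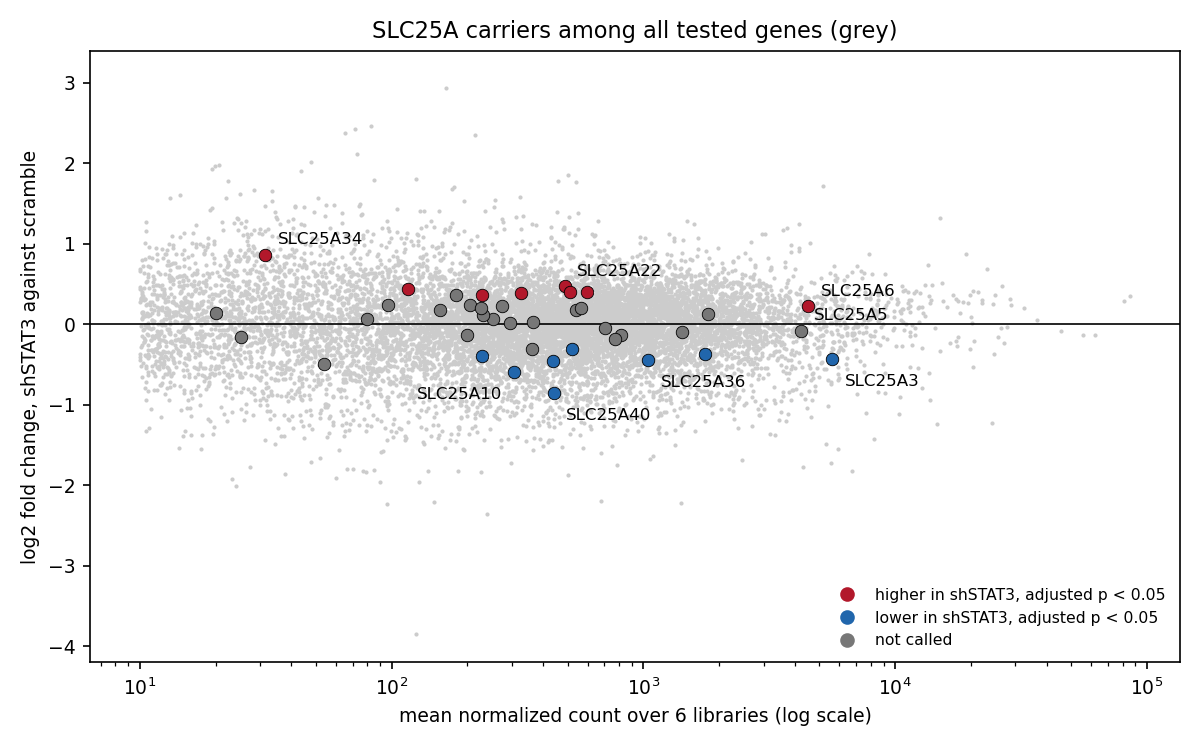
Log2 fold change (shSTAT3 against scramble) against mean normalized count (log axis) for all 12061 tested genes in grey and the 40 SLC25A carriers in colour, red where called higher, blue where called lower and dark grey where not called. The carriers stay between −0.85 and 0.86 and lie inside the cloud of all genes.

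The levels of the carriers differed far more than their changes. Per kilobase of the principal transcript, SLC25A3, the phosphate and copper carrier, had 3342 normalized counts, SLC25A5 (the ADP/ATP carrier ANT2) 3320 and SLC25A6 (ANT3) 2184. These 3 made up 55.9% of the summed level of the 40 carriers per kilobase. SLC25A39, a glutathione carrier, followed with 1118 and SLC25A1, the citrate carrier, with 1069 counts per kilobase. All others were at 417 or less, with a median of the 40 carriers at 124 and the lowest level at 4.04 for SLC25A53, which has no settled substrate. The order depends on the length used. With the merged exons of all transcripts the level of SLC25A3 was 630 counts per kilobase and it ranked 4, behind SLC25A5, SLC25A6 and SLC25A1. The order of SLC25A3 and SLC25A5 is therefore not settled, and as the table gives no spread of levels, neighbours in this order were not tested.

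**Figure D2:**
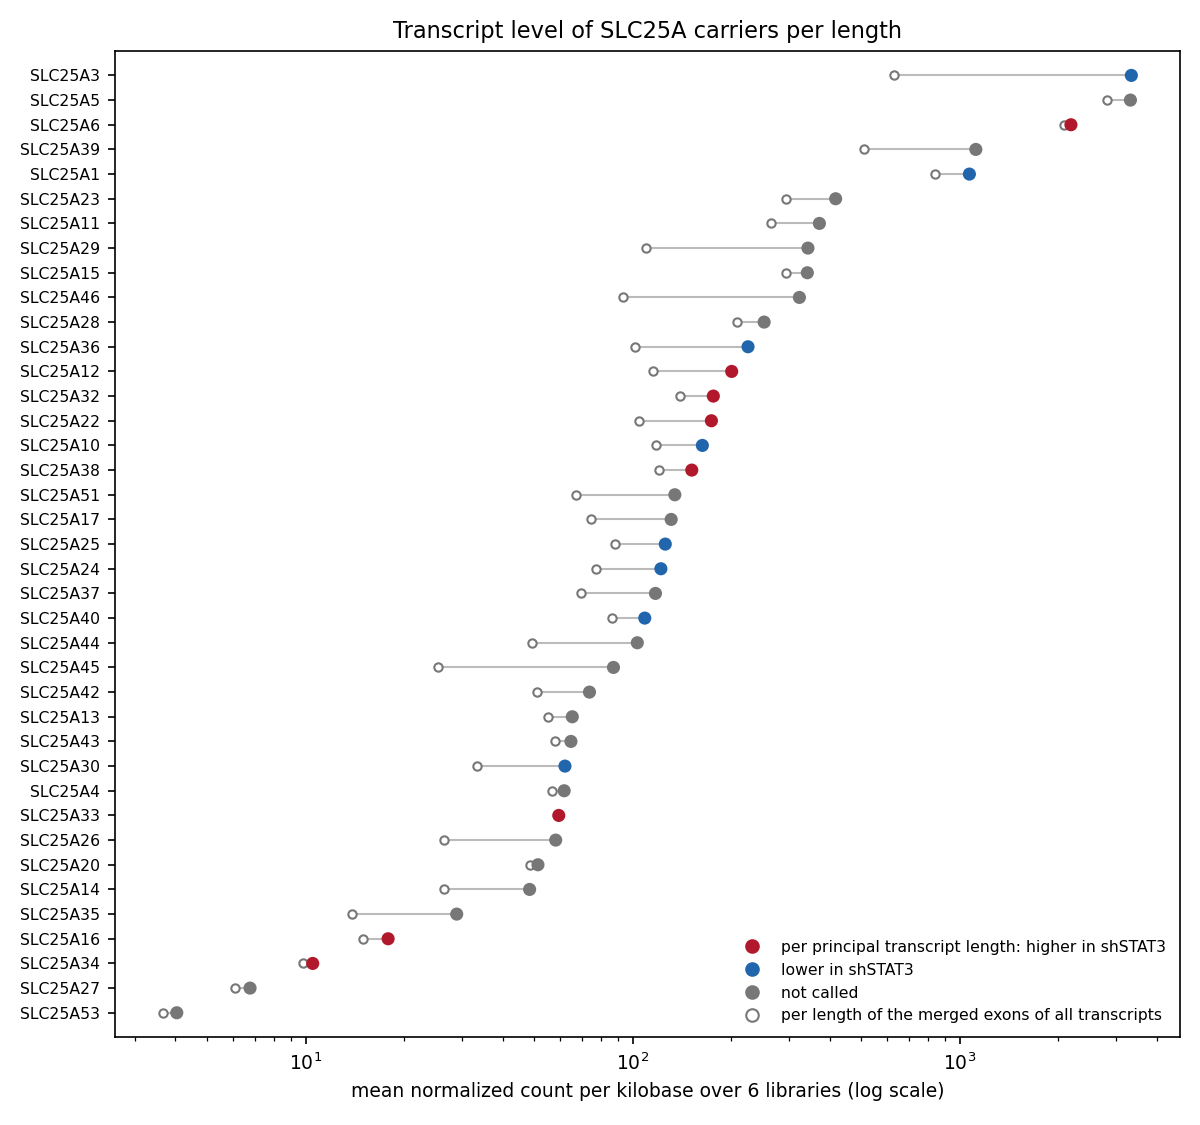
Mean normalized count per kilobase over the 6 libraries (log axis) for the SLC25A carriers named in the text, filled points per length of the principal transcript (red called higher, blue called lower, grey not called) and open points per length of the merged exons of all transcripts. SLC25A3, SLC25A5 and SLC25A6 lie at the top, and SLC25A3 shows the largest shift between both lengths.

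The ADP/ATP carriers exchange matrix ATP for cytosolic ADP and are the main exit of ATP from mitochondria. SLC25A5 did not pass the test (log2 change −0.08, 95% interval −0.21 to 0.06, adjusted p = 0.380 in the authors' deposited table). SLC25A6 rose 1.17-fold per the authors' deposited table (log2 change 0.23, interval 0.10 to 0.35, adjusted p = 0.0015). SLC25A4, the form known from heart and muscle, was at 0.22 with an interval of −0.06 to 0.51 and was not called in the authors' deposited table. Per kilobase SLC25A4 made up 1.11% of the summed level of the 3 ADP/ATP carriers, SLC25A5 59.6% and SLC25A6 39.2%. The testis form SLC25A31 was listed at 0, which allows a mean of up to 0.5 normalized counts (3 reads over 6 libraries, counting error only). SLC25A6 lies in the pseudoautosomal region of the X chromosome (1386152 to 1392724 on GRCh38, GENCODE release 29). GENCODE lists 9 pseudogenes named after SLC25A5, 6 after SLC25A6 and 2 after SLC25A3. Only 1 of these, an SLC25A3 copy, has a row in the table, at a mean of 0, so values of these 3 genes depend on how shared reads were assigned.

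SLC25A3 brings in the phosphate from which ATP synthase makes ATP. It fell to 74.1% of scramble per the authors' deposited table, with the smallest adjusted p of the family (log2 change −0.43, 95% interval −0.56 to −0.31, adjusted p = 1.33e-10). SLC25A3 lies at chr12:98593591-98606379 (plus strand). With its mean of 5607 this corresponds to about 6443 normalized counts in scramble and 4772 in shSTAT3. The ATP-Mg/phosphate carriers, which are switched by calcium and set the adenine nucleotide pool of the matrix, include SLC25A24, SLC25A25, SLC25A23 and SLC25A41. SLC25A25 fell to 72.8% and SLC25A24 to 80.7% of scramble per the authors' deposited table (log2 changes −0.46 and −0.31, adjusted p = 0.000254 and 0.0174). SLC25A23 was the most abundant of the 4 and was at −0.10 per the authors' deposited table (interval −0.27 to 0.07, not called). SLC25A41 had a mean of 5.90, under the minimum. Of the 7 tested nucleotide and phosphate carriers, 1 thus rose and 3 fell, with a median of −0.10.

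SLC25A25 shares 665 exon bases with its antisense gene SLC25A25-AS1 on chromosome 9. SLC25A25-AS1 rose 2.52-fold per the authors' deposited table (mean 311, log2 change 1.33, 95% interval 1.07 to 1.60, adjusted p = 8.08e-21). The antisense RNA and the carrier thus moved in opposite directions. TruSeq RNA v2 libraries do not mark the strand, so reads from the shared bases cannot be told apart, and both values are uncertain to that extent.

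The carboxylate carriers exchange citrate, dicarboxylates or oxoglutarate across the inner membrane. SLC25A1, which takes citrate to the cytosol, where ACLY splits it for fatty acid and sterol synthesis, fell to 77.4% of scramble per the authors' deposited table (mean 1761, log2 change −0.37, 95% interval −0.54 to −0.20, adjusted p = 0.000136). SLC25A10, the dicarboxylate carrier that exchanges malate or succinate for phosphate, fell to 66.2% per the authors' deposited table (mean 308, log2 change −0.59, standard error 0.14, interval −0.86 to −0.33, adjusted p = 6.26e-05). SLC25A10 lies at chr17:81712236-81721016 (plus strand), and its change corresponds to about 370 normalized counts in scramble and 245 in shSTAT3. SLC25A11, the oxoglutarate carrier of the malate-aspartate shuttle, was at −0.05 (interval −0.25 to 0.16) and was not called in the authors' deposited table. SLC25A21, the oxodicarboxylate carrier, had 2 reads over all 6 libraries. Of 3 tested carriers 2 fell and 0 rose.

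Of 7 tested carriers of amino acids 3 rose and 0 fell per the authors' deposited table (median log2 fold change 0.25). These 42.9% called are near the 44.5% of all tested genes. SLC25A22, a glutamate carrier, rose 1.39-fold per the authors' deposited table (log2 change 0.47, 95% interval 0.24 to 0.70, adjusted p = 0.000327). SLC25A12, the aspartate/glutamate carrier aralar of the malate-aspartate shuttle, rose 1.32-fold per the authors' deposited table (log2 change 0.40, interval 0.20 to 0.61, adjusted p = 0.000597). Its sister SLC25A13, citrin, was at 0.25 with an interval of −0.04 to 0.54 and did not pass. SLC25A38, which brings in glycine for haem synthesis, rose 1.31-fold per the authors' deposited table (log2 change 0.39, adjusted p = 0.00501). The ornithine carrier SLC25A15 was at 0.18 and the basic amino acid carrier SLC25A29 at −0.13, neither called. SLC25A44, the carrier of branched-chain amino acids, was at −0.30 and missed the threshold narrowly (adjusted p = 0.0504 in the authors' deposited table). SLC25A2, the other ornithine carrier, and SLC25A18, a glutamate carrier, had 1 read each over all libraries, and SLC25A48 was listed at 0. The counts of the substrate groups are small and stand beside 21.3% higher and 23.2% lower among all tested genes. The difference between carboxylate and amino acid carriers was not tested.

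**Figure D3:**
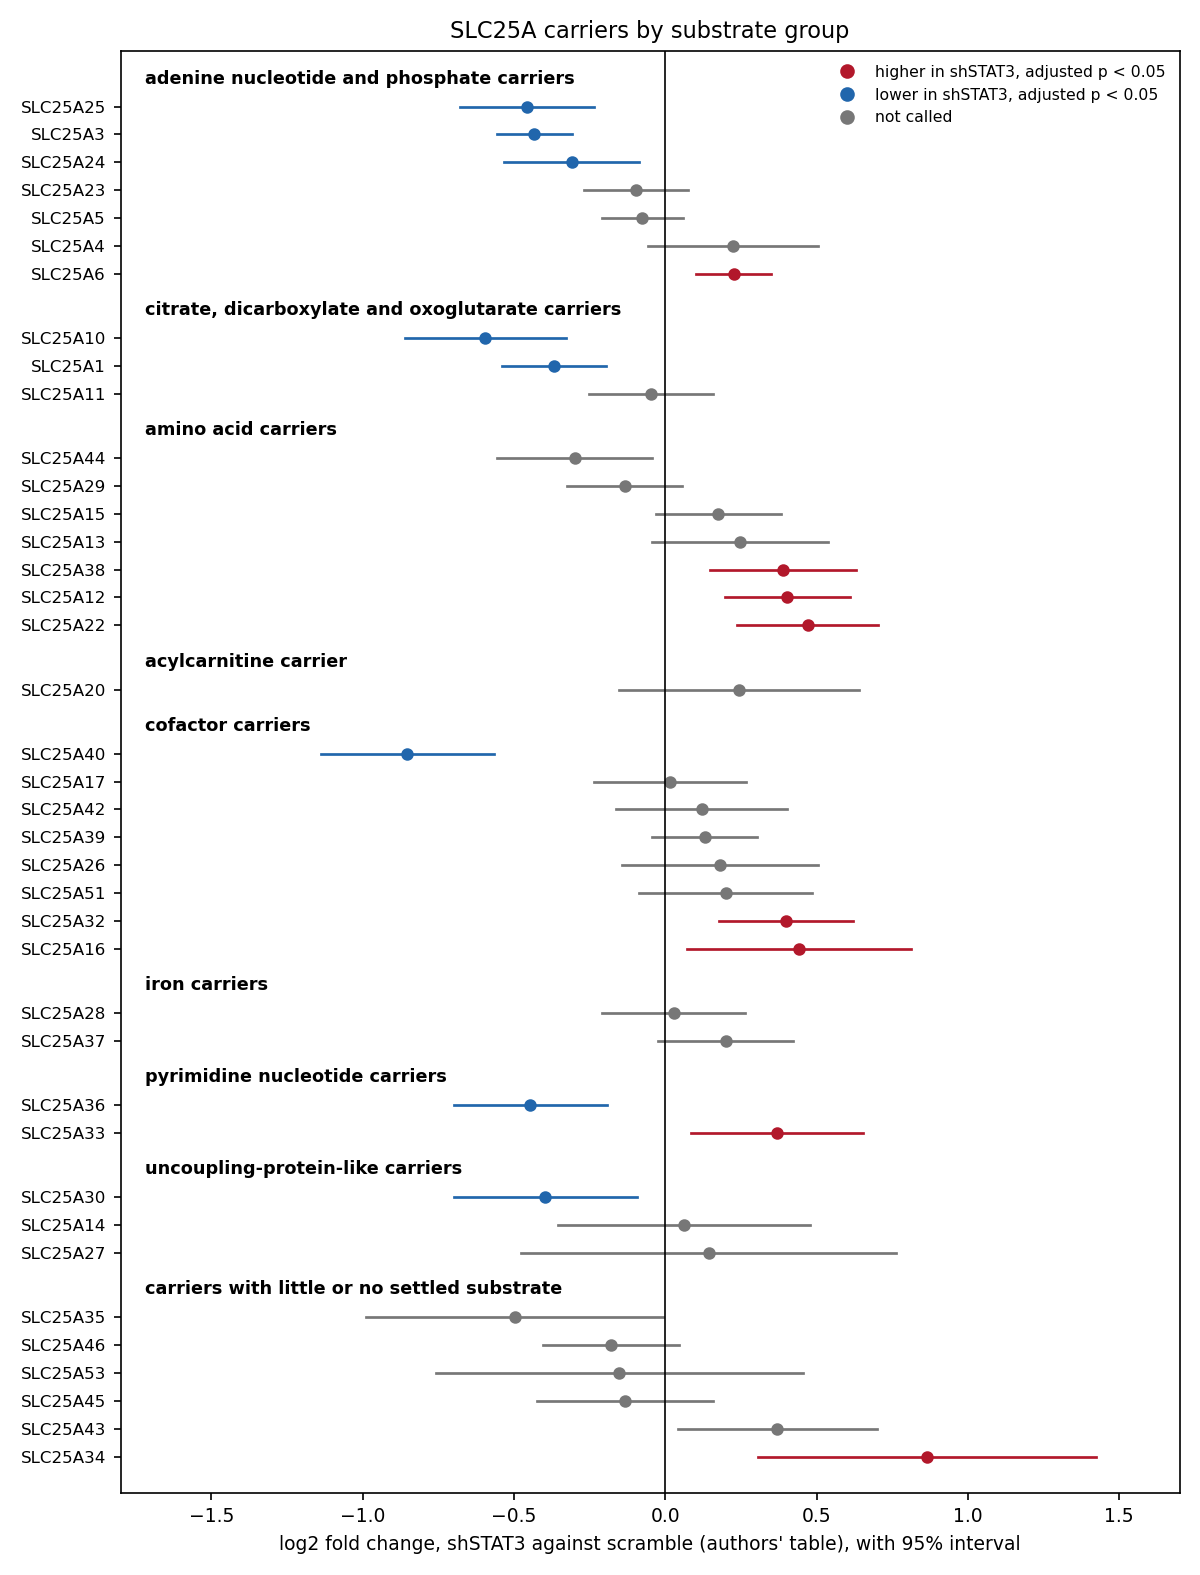
Log2 fold change (shSTAT3 against scramble, authors' table) of each SLC25A carrier named in the text with its 95% interval, ordered by substrate group, red where called higher, blue where called lower and grey where not called. The 3 called of 7 tested amino acid carriers lie to the right of 0. The 2 called of 3 tested carboxylate carriers lie to the left, and the 2 pyrimidine nucleotide carriers on opposite sides.

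Cofactor carriers held the lowest value of the family. SLC25A40, like SLC25A39 a carrier of glutathione into the matrix, fell to 55.4% of scramble per the authors' deposited table (mean 440, log2 change −0.85, standard error 0.15, 95% interval −1.14 to −0.57, adjusted p = 5.5e-08). The gene spans chr7:87833568-87876357 (minus strand, GRCh38, GENCODE release 29). Its change corresponds to about 566 normalized counts in scramble and 314 in shSTAT3. SLC25A39, with a mean of 1797, was at 0.13 per the authors' deposited table (interval −0.04 to 0.30, adjusted p = 0.228). The intervals of the 2 glutathione carriers do not overlap, and their difference itself was not tested, as that needs values per library. SLC25A32, which brings folate or FAD into mitochondria, rose 1.32-fold per the authors' deposited table (log2 change 0.40, interval 0.18 to 0.62, adjusted p = 0.00165). SLC25A16, linked to coenzyme A, rose 1.36-fold in the authors' deposited table, close to the threshold (log2 change 0.44, interval 0.07 to 0.81, adjusted p = 0.0449). The coenzyme A carrier SLC25A42, the S-adenosylmethionine carrier SLC25A26, the NAD carrier SLC25A51 and the peroxisomal carrier SLC25A17 lay at 0.12, 0.18, 0.20 and 0.02 per the authors' deposited table, none of them called. SLC25A52, a near relative of SLC25A51, had 4 reads in all. Of 9 tested cofactor carriers 2 rose and 1 fell.

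SLC25A40 and SLC25A32 each share their start region with a gene on the opposite strand. The starts of SLC25A40 and DBF4, which encodes the activator of the replication kinase CDC7, lie 120 bases apart on chromosome 7, and the transcripts overlap there. DBF4 fell to 60.0% of scramble per the authors' deposited table (mean 632, log2 change −0.74, 95% interval −0.95 to −0.53, adjusted p = 1.17e-10). The start region of SLC25A40 is shown because both genes fell. The DBF4 start lies 120 bases inside SLC25A40 and outside the window below, which therefore does not describe the DBF4 promoter. The window holds 250 bases before and 50 after the RefSeq start of SLC25A40 (GRCh38.p14, chr7:87876311-87876610, minus strand, 71.3% G or C), and it has neither a STAT-type site nor an E-box.
SLC25A40: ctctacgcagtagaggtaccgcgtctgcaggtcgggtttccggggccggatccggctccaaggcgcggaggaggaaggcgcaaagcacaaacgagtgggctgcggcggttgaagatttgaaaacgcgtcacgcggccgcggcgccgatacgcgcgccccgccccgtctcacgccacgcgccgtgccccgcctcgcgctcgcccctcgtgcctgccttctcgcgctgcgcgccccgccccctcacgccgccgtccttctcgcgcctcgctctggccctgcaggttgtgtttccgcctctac

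The starts of SLC25A32 and DCAF13, a nucleolar protein gene, lie 285 bases apart, and DCAF13 rose 1.32-fold per the authors' deposited table (log2 change 0.40, interval 0.22 to 0.57, adjusted p = 6.33e-05). In this pair and in SLC25A40 with DBF4 the partners were called in the same direction. SLC25A11 and RNF167, a ubiquitin ligase gene, start 123 bases apart, and RNF167 fell by 0.39 (log2) per the authors' deposited table (adjusted p = 0.00038) while SLC25A11 was not called. SLC25A5 and SLC25A5-AS1, with starts 695 bases apart, were both not called. No other tested opposite-strand gene has its principal transcript start within 1000 bases of that of a carrier. Starts of other transcripts were not compared. The partners of each pair also share exon bases when all their transcripts are merged. SLC25A40 shares 142 with DBF4, SLC25A32 406 with DCAF13, SLC25A11 244 with RNF167 and SLC25A5 227 with SLC25A5-AS1. Part of the reads of each pair could be counted for either gene without strand. Exons of 10 carriers overlap an opposite-strand gene of the table, SLC25A22, SLC25A12 and SLC25A30 among the called ones. Among those not called, SLC25A35 (mean 53.9) shares 1293 bases with RANGRF (mean 327). SLC25A26 (mean 155) shares 907 with LRIG1 (mean 652), so the values of both carriers are uncertain to that extent.

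SLC25A36 and SLC25A33 carry pyrimidine nucleotides for the synthesis of mitochondrial DNA and RNA, and they moved apart. SLC25A36 fell to 73.4% of scramble and SLC25A33 rose 1.29-fold per the authors' deposited table (log2 changes −0.45 and 0.37, 95% intervals −0.70 to −0.19 and 0.09 to 0.65, adjusted p = 0.00199 and 0.0268). With means of 1044 and 229, SLC25A36 remained the more abundant form, at 225 counts per kilobase against 59.4.

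SLC25A36 is the only called carrier with a STAT-type site in its RefSeq promoter window, among the 34 of 40 carriers with such a window. Its window follows (GRCh38.p14, chr3:140941586-140941885, plus strand), with capitals for the sequence TTCATTGAA, at position −167 from the gene's start, and for an E-box at position −143.
SLC25A36: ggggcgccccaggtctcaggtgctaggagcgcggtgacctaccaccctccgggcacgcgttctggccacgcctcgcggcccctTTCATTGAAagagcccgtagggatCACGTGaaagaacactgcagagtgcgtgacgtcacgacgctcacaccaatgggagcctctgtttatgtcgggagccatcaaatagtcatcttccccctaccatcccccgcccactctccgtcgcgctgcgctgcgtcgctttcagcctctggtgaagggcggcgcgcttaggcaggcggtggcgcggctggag

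STAT-type sites were searched as TTCNNNGAA on both strands (a palindrome), and were found in 4 of 34 carriers (11.8%) against 8.60% of the 9058 tested genes with a window. The other 3 are SLC25A44 (TTCTCGGAA), SLC25A11 (TTCGGTGAA) and SLC25A23 (TTCCCAGAA), of which none was called. The E-box CACGTG, bound by MYC and related factors, was found in 8 of 34 carriers (23.5%) against 12.7% of tested genes. Of these 8 carriers 3 rose (SLC25A33, SLC25A38 and SLC25A22), SLC25A36 fell and 4 were not called. For comparison, 44.5% of all tested genes and 40.0% of the 40 carriers were called. Whether a motif goes with a direction was not tested. CCAAT was found in 58.8% of the carriers against 43.6% of tested genes, the ETS sequence CCGGAAGT in 11.8% against 10.4%, and the E2F sequence TTTCCCGC in 5.88% against 3.47%. The NRF1 core GCATGCGC was in none of the 34 windows and in 6.83% of tested genes. The 34 carriers have 43 windows, and a match describes letters, not binding.

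The remaining carriers include 2 called genes. SLC25A30, an uncoupling-protein-like carrier, fell to 76.0% of scramble per the authors' deposited table (log2 change −0.40, 95% interval −0.70 to −0.09, adjusted p = 0.0252). Its exons overlap those of TPT1-AS1 on the other strand, which rose by 0.59 (log2) in the authors' deposited table. SLC25A14 and SLC25A27, of the same kind, were at 0.06 and 0.14, with means of 79.8 and 20.0 and wide intervals. SLC25A34, a carrier of unsettled substrate, had the largest rise, 1.82-fold, at a mean of only 31.4 per the authors' deposited table (log2 change 0.86, interval 0.31 to 1.42, adjusted p = 0.0075). SLC25A35 (−0.50), SLC25A43 (0.37), SLC25A46 (−0.18), SLC25A53 (−0.15) and SLC25A45 (−0.13) were not called in the authors' deposited table, and SLC25A47 was listed at 0. SLC25A46 sits in the outer membrane and is tied to mitochondrial fission. The mitoferrins SLC25A37 and SLC25A28, which import iron, were at 0.20 and 0.03 with intervals of −0.02 to 0.42 and −0.21 to 0.27, and SLC25A20, the acylcarnitine carrier, at 0.24 with −0.15 to 0.64, none called in the authors' deposited table. A p that misses the threshold does not show equal levels, and intervals of the 24 carriers not called reach from 0.13 to 0.62 to either side of their values.

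Family members under other symbols showed one larger change. UCP2, an uncoupling protein that also exchanges short dicarboxylic acids, fell to 57.6% of scramble per the authors' deposited table (mean 1180, log2 change −0.80, 95% interval −0.96 to −0.63, adjusted p = 6.66e-19). MTCH1, an outer-membrane relative of the carriers, rose by 0.20 and MTCH2, the outer-membrane insertase, was at 0.17 per the authors' deposited table (adjusted p = 0.0188 and 0.0788). UCP3 was at 0.35 with a mean of 23.0 and was not called.

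Genes that work with the carriers were read from 12 lists, UCP2 and its relatives included. Of 114 tested genes 27 rose and 30 fell in the authors' deposited table, 50% against 44.5% of all tested genes. The machinery that imports carriers (TOM subunits, small TIMs and TIM22) rose in 4 of 16 cases and fell in 0 (median 0.19), against 21.3% and 23.2% of all tested genes. TOMM22, a receptor of the TOM complex, and the small TIMs TIMM13 and TIMM8A rose by 0.36, 0.31 and 0.49 (log2) in the authors' deposited table. Of 10 other metabolite channels 3 fell and 0 rose (median −0.14): MPC2, a subunit of the pyruvate carrier, SFXN1, which imports serine, and SFXN4 fell by 0.36, 0.23 and 0.41 in the authors' deposited table.

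Enzymes beside the carboxylate and aspartate carriers fell in 5 and rose in 3 of 10 cases (median −0.23). ACLY, which uses the citrate that SLC25A1 exports, fell to 34.3% of scramble per the authors' deposited table (mean 5906, log2 change −1.54, adjusted p = 7.07e-85). ACACA, the next enzyme toward fatty acids, and MDH1, the cytosolic malate dehydrogenase, fell by 0.44 and 0.50 in the authors' deposited table. In the urea cycle and ornithine list 1 of 6 rose and 2 fell. ASS1, which joins citrulline and aspartate, fell to 34.8%, ASL, the next enzyme, to 72.9%, and CPS1, with a mean of 25.0, rose 1.75-fold in the authors' deposited table. Of 10 mitochondrial folate and one-carbon genes 2 rose and 4 fell. MTHFD2 and SHMT2, which oxidise and load the folate of the matrix, fell to 63.7% and 70.9% of scramble while MAT2A, which makes S-adenosylmethionine, rose 1.45-fold in the authors' deposited table. The folate carrier SLC25A32 and these 2 enzymes thus have opposite signs.

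Around the acylcarnitine carrier 4 of 8 genes rose and 2 fell (median 0.20). CROT and CPT1A, which load acyl groups on carnitine in peroxisomes and at the outer membrane, rose 3.44-fold and 2-fold, and CRAT fell by 0.61 (log2) in the authors' deposited table. Of 14 genes of haem and iron-sulphur cluster synthesis 4 rose and 3 fell (median 0.10). NFS1, the desulphurase, rose by 0.58 and the transporter ABCB10 fell by 0.49 in the authors' deposited table. Of 7 glutathione genes 1 rose and 2 fell (median −0.17). GCLC, of the first step of glutathione synthesis, rose by 0.33, while the peroxidase GPX4 and the protease AFG3L2, which degrades SLC25A39, fell by 0.44 and 0.38 in the authors' deposited table.

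Of 11 genes of thiamine, coenzyme A and NAD synthesis 1 rose and 1 fell, PPCS by 0.37 and NAMPT by 0.30 (log2) in the authors' deposited table. Mitochondrial nucleotide and DNA genes rose in 2 and fell in 2 of 9 cases. C10orf2, the mitochondrial helicase Twinkle, and POLG2, of the mitochondrial polymerase, rose by 0.66 and 0.36, and CMPK2, a mitochondrial pyrimidine kinase, fell by 0.49 in the authors' deposited table. All 9 tested regulators of mitochondrial biogenesis were called, 4 higher and 5 lower (median −0.22), against 44.5% of all tested genes. This list is small and was chosen with earlier results of these data known. PPRC1 and PPARGC1B, coactivators of the PGC-1 family, and the nuclear receptor ESRRA rose by 0.62, 0.70 and 0.60 (log2) in the authors' deposited table. The lower ones (chosen for naming with values in view) were NRF1, GABPA, GABPB1, YY1 and TFB1M, at −0.30, −0.34, −0.44, −0.22 and −0.55 in the authors' deposited table. The lists say how many genes passed, and none was tested as a set. The counts of every list stand beside 21.3% higher and 23.2% lower among all tested genes.

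**Figure D4:**
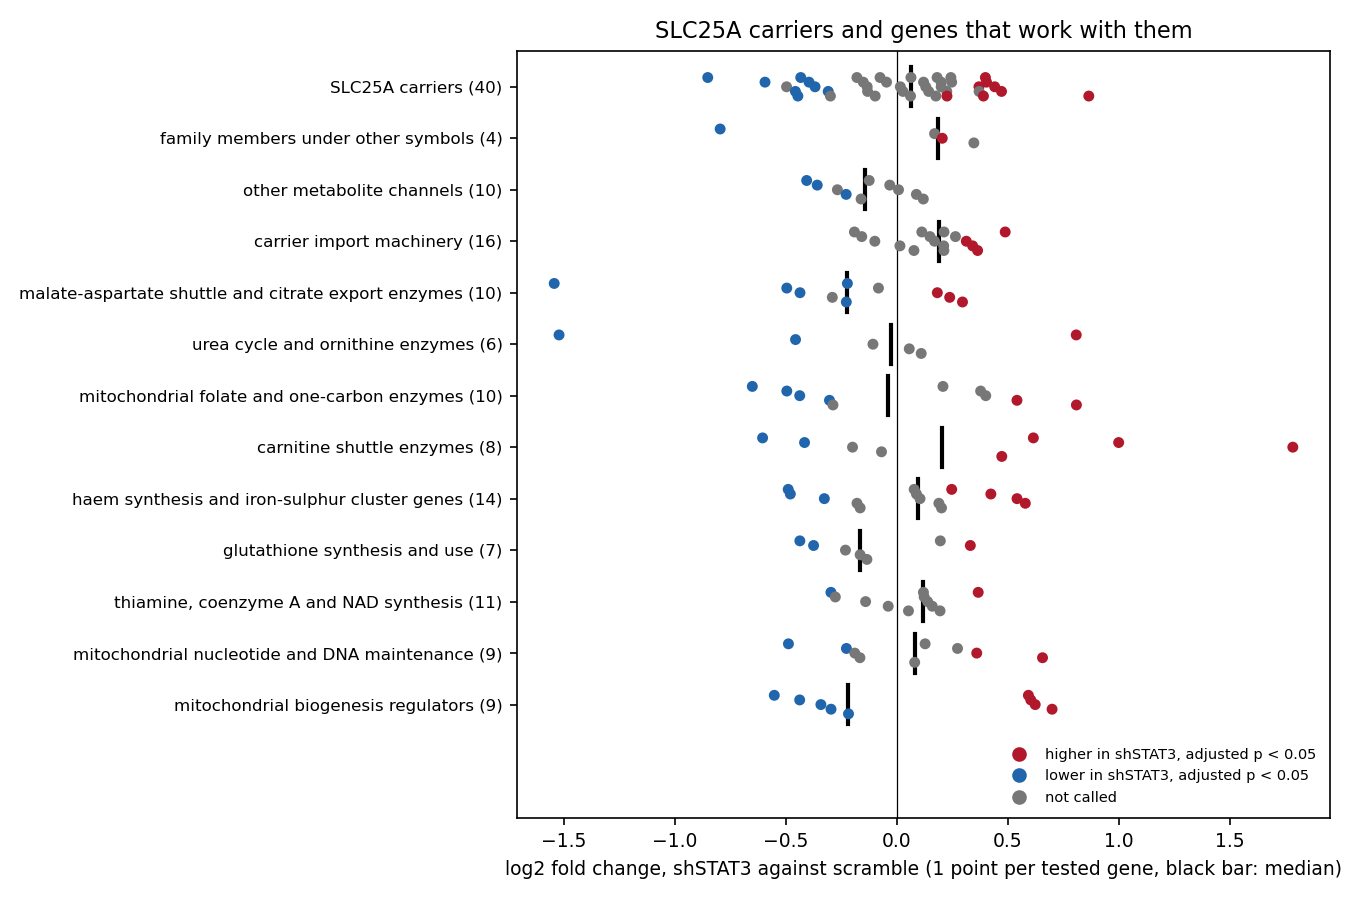
Log2 fold change (shSTAT3 against scramble) of the 40 SLC25A carriers and of each tested gene in 12 lists of genes that work with them, number tested in brackets, 1 point per gene (red called higher, blue called lower, grey not called) and a black bar at each median. ACLY and ASS1 lie near −1.5 and CROT at 1.78, beyond every carrier.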

How the data were processed

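Total RNA of 6 REH cultures was made into TruSeq RNA v2 libraries, per the labels' protocols. Tools listed in the submitters' processing notes are DESeq2, featureCounts, Picard, Bowtie2, Trimmomatic and bcl2fastq 2.19, with hg38 as build. What annotation, strand setting or model was used is not stated there. Per gene, the authors' deposited table holds a signal, the mean normalized count (reads over size factors). It also holds log2 fold changes and p-values, raw and adjusted, per the file headers and as deposited by the authors. DESeq2 was run by the authors across all genes, and no count per library was analysed here, so the planned replicate fits were replaced by their adjusted p under 0.05. Recomputing the Benjamini-Hochberg adjustment over the 12061 tested genes gave their values within 2.87e-07.

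Fold changes are shrunken: genes with 1 read have values within 0.0593 of 0. Standard errors are the fold change divided by the normal quantile of p, and counts per group follow from mean and fold. Scripts ran on Python 3.11.15 with scipy 1.17.1, pandas 2.3.3, numpy 2.4.6 and, for plots, matplotlib 3.10.9, and the steps were tested on simulated data first. Positions, exons and principal transcripts (APPRIS) came from GENCODE 29 on GRCh38, where 40 of 40 carriers matched, and promoter windows from RefSeq (GRCh38.p14) for 34. Windows on the Y chromosome were left out. Carriers are named whether called or not, with full statistics for called ones with a mean of at least 50 and a 1.5-fold change, and up to 3 called genes of each list by adjusted p. Some genes, counted in the totals, are not reported here by name. Neighbours and antisense genes were named after their values were seen. The carriers, lists and motifs were chosen with earlier results of these data known. Alternatives were other thresholds, adjustments and filters.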

Additional observations from a re-analysis of the deposited data

How the results depend on the processing

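No paired analysis was possible because the table has no value per library, and for the same reason no library could be left out. Of 40 carriers 12 passed at an adjusted p of 0.01 and 19 at 0.1, where 34.1% and 50.6% of all tested genes passed. With a Bonferroni adjustment 2 carriers passed, SLC25A3 and SLC25A40, with 0 higher and 2 lower, against 16.7% of all tested genes. With at least a 1.5-fold change 3 passed, 1 higher and 2 lower, against 17.3%. Adjusted over every gene with a p, 15 of 45 carriers passed, against 28.7% of 17701 genes. With a mean of at least 50, 16 of 37 passed, 7 higher and 9 lower, against 48.7% of 10441 genes. These are not the same 16 as reported above, since SLC25A34 (mean 31.4) lies under this limit. The median of the carriers lay between 0.04 and 0.06 in all 4 ways it was taken, and subtracting the median of all tested genes changed no direction among the 40. For the 114 genes of the lists, with the same settings chosen after the data were seen, Bonferroni left 19 calls, 8 higher and 11 lower, the 1.5-fold minimum left 15, 10 higher and 5 lower, and the 0.01 threshold left 40, 17 higher and 23 lower (shares of all tested genes as above). Levels per kilobase moved by over 1.5 times with merged exons for 17 of 40 carriers. Carriers with few reads, such as SLC25A27 (standard error 0.32), could show large changes only.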

Other observations

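Of 8 carriers under the minimum mean, 3 were listed at 0 and 5 had reads. SLC25A2, SLC25A18, SLC25A21 and SLC25A52 had 1, 1, 2 and 4 reads over all 6 libraries, each set of reads found from its mean and the 6 size factors to a tolerance of 4e-09 in the mean. The libraries behind these reads carry no sample label. By the sign of its log2 change (−0.057), the single read of SLC25A18 was in scramble. That of SLC25A2 (0.058) was in shSTAT3. Antisense genes of the family were few: SLC25A5-AS1 was at 0.32 with a mean of 30.9 and was not called, SLC25A30-AS1 had a mean of 0.525 and SLC25A21-AS1 was listed at 0, in the authors' deposited table. Among carriers with a mean of at least 1000, 4 of 7 were called (57.1%), against 58.8% of all tested genes with such means. Among those with a mean of at least 200, 14 of 30 were called (46.7%), against 50.9%.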
